A study of Homo sapiens with 9 samples.

Results

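Integrins and tetraspanins are the plasma membrane proteins by which cells hold on to matrix and organize their contacts. The 48 genes described here are the protein-coding genes of the deposited count table whose symbols name an integrin alpha or beta subunit or a numbered tetraspanin. They are 26 integrin genes, of which 18 encode alpha and 8 encode beta subunits, and 22 tetraspanin genes, out of 60664 gene identifiers in all. The rule used symbols only and no measured value, but it was chosen with earlier results of these data known. Levels were measured by RNA sequencing in Huh-7 cells, a human hepatocellular carcinoma cell line. WT cells were compared with 1-1 KO cells, in which the vault RNA gene vtRNA1-1 is knocked out, and with 1-2 KO cells, in which vtRNA1-2 is knocked out, with 3 libraries per line. Vault RNAs are short noncoding RNAs, some of which are found in the vault ribonucleoprotein particle. All 3 lines were grown alike, in DMEM/F12 with heat-inactivated FBS, and no treatment is named for any of them. The WT and 1-1 KO cells had been provided by another laboratory. CRISPR/Cas9 editing of the WT cells gave the 1-2 KO cells, which descend from 1 cell, and each knockout was thus studied in 1 line only.

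An integrin is a heterodimer of 1 alpha and 1 beta subunit. The alpha subunit largely sets the ligand (collagen, laminin, or proteins with the RGD motif such as fibronectin and vitronectin), and the beta subunit links the receptor through talin and kindlin to actin. ITGB1 pairs with the widest range of alpha subunits, and ITGAV with several beta subunits. Tetraspanins cross the membrane repeatedly and gather integrins, proteases and receptors into membrane domains, and the TspanC8 subgroup guides the protease ADAM10. Hepatocytes are known for collagen, laminin and fibronectin receptors of the ITGB1 group.

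The libraries held 32384469 to 41782387 counts, and 3 counts, the floor used here for each library, corresponded to 0.0709 to 0.0951 CPM (counts per 1000000 counts of the library, scaled with edgeR's TMM factors). Floors cover counting error only. The library preparation selected polyadenylated RNA, and the targeted genes could not be checked with it: VTRNA1-1 had 1 count in the 9 libraries together and VTRNA1-2 had 0. The paper assessed the vault RNAs of the sequenced lines by northern blot. All 8 hepatocyte markers were above the floor in every line, with summed levels of 9346 to 9955 CPM in WT, 17452 to 18097 in 1-1 KO and 10917 to 12055 in 1-2 KO. Summed markers of fibroblasts were at 166 to 177, 220 to 231 and 83.4 to 88.7 CPM in the same order, those of leukocytes at 39.8 to 42.4, 36.8 to 40.5 and 29.1 to 31.1 CPM, and those of platelets between 0.888 and 1.32 CPM. The 5 endothelial markers summed to 7.42 to 8.04, 6.43 to 7.22 and 0.831 to 1.10 CPM, with 3 of the 5 at or under the floor in each line and KDR at 0 in all. A sum need not show the direction of its single markers. At the threshold used below, 3 of 4 tested fibroblast markers were higher and 1 lower in 1-2 KO, where their sum was lowest. In 1-1 KO, 2 were higher and 0 lower. Of 3 tested leukocyte markers, 2 were higher and 1 lower in each knockout. The part of these shifts in the values below was not tested. All libraries came from cultures of the Huh-7 line, so these sums are levels in that line and not counts of other cell types. In bulk RNA of a cell line, fewer cells that express a gene and a lower level per cell cannot be told apart. The paper calls the 3 libraries of a line biological replicates, with RNA extracted in triplicate. The labels do not say that the libraries of a line came from separate cultures. The p-values thus measure the spread between these libraries, within 1 line per knockout.

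Of the 48 genes, 37 passed the filter on low counts and were tested. The other 11 never exceeded 13 counts in a library. They are ITGA4, ITGA8, ITGA11, ITGAD, ITGAX, ITGB2, ITGB7, TSPAN11, TSPAN16, TSPAN19 and TSPAN32, and TSPAN16 and TSPAN32 had 0 counts in all 9 libraries. ITGB2 and ITGB7, the beta partners of the leukocyte alpha subunits, are thus among the genes near the floor, and ITGB2 had at most 10 counts in a library.

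Genes were called differentially expressed where edgeR's quasi-likelihood test gave an adjusted p below 0.05, and each adjusted p given here comes from that test unless another is named. In 1-1 KO compared to WT, 32 of the 37 tested members were differentially expressed, against 63.4% of all tested genes. Of these, 15 were upregulated (background 32.5%) and 17 were downregulated (background 30.9%). An absolute log2 fold change of at least 1 was reached by 13 members, 6 upward (background 9.40%) and 7 downward (background 3.97%). In 1-2 KO compared to WT, 27 members were differentially expressed against 54.4% of all genes, 15 upregulated (28.2%) and 12 downregulated (26.2%), and 11 reached a log2 fold change of 1, with 7 upward (8.62%) and 4 downward (3.06%). The median absolute log2 fold change of the tested members was 0.76 in 1-1 KO and 0.33 in 1-2 KO, against 0.35 and 0.27 for all tested genes. Both comparisons share the 3 WT libraries. Compared directly, 33 members differed between the knockouts against 65.3% of all genes, with 19 higher (33.1%) and 14 lower (32.2%) in 1-2 KO. A log2 fold change of 1 was reached by 10 of the former (7.33%) and 5 of the latter (6.81%). Members that passed the filter are not a sample of all members, since a gene silent in every line could not pass it.

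By family, 9 of 19 tested integrins were higher and 7 lower in 1-1 KO, against 7 higher and 5 lower in 1-2 KO. Of 18 tested tetraspanins, 6 were higher and 10 lower in 1-1 KO, against 8 higher and 7 lower in 1-2 KO. Differential expression in opposite directions was found for 12 members. Of these, 7 were lower in 1-1 KO and higher in 1-2 KO (ITGA1, ITGA5, TSPAN2, TSPAN3, TSPAN4, TSPAN17 and TSPAN18), and 5 were higher in 1-1 KO and lower in 1-2 KO (ITGA6, ITGAL, ITGB5, TSPAN6 and TSPAN8). All 12 differed in the direct comparison of the knockouts. ITGA3, ITGA7, ITGA9, ITGB8, TSPAN5, TSPAN7 and TSPAN10 were higher in both lines, and ITGA2, ITGB1, TSPAN12, TSPAN14 and TSPAN15 were lower in both. The share of all tested genes with each of these patterns was not computed. Since 63.4% of all tested genes were called in 1-1 KO and 54.4% in 1-2 KO, these counts are not read as particular to the members. ITGA2B and ITGAE did not pass the threshold in either knockout.

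**Figure D1:**
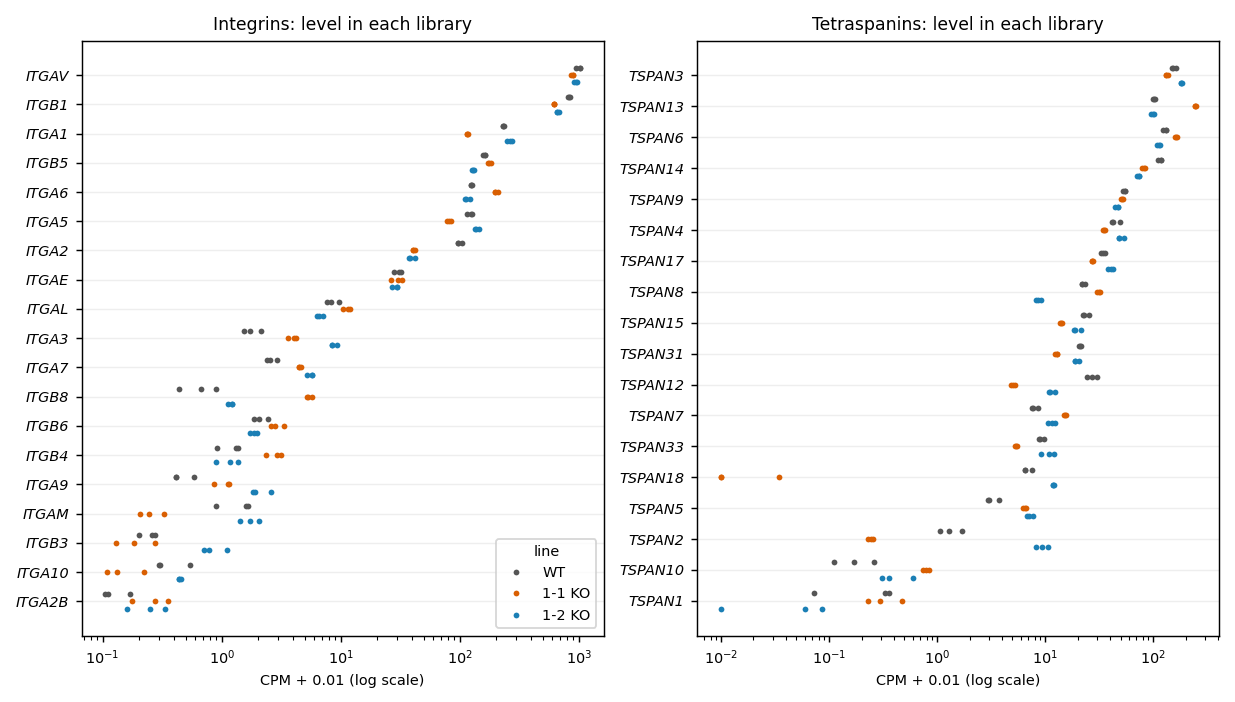
Level of the 37 tested members in each of the 9 libraries, as CPM + 0.01 on a log axis, with integrins on the left and tetraspanins on the right and 1 point per library (WT grey, 1-1 KO orange, 1-2 KO blue). ITGAV and ITGB1 form the top rows of the integrins, between 615 and 1024 CPM. The TSPAN18 points of 1-1 KO lie at or near the left end of their panel, with 0 counts in 2 of the 3 libraries.

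**Figure D2:**
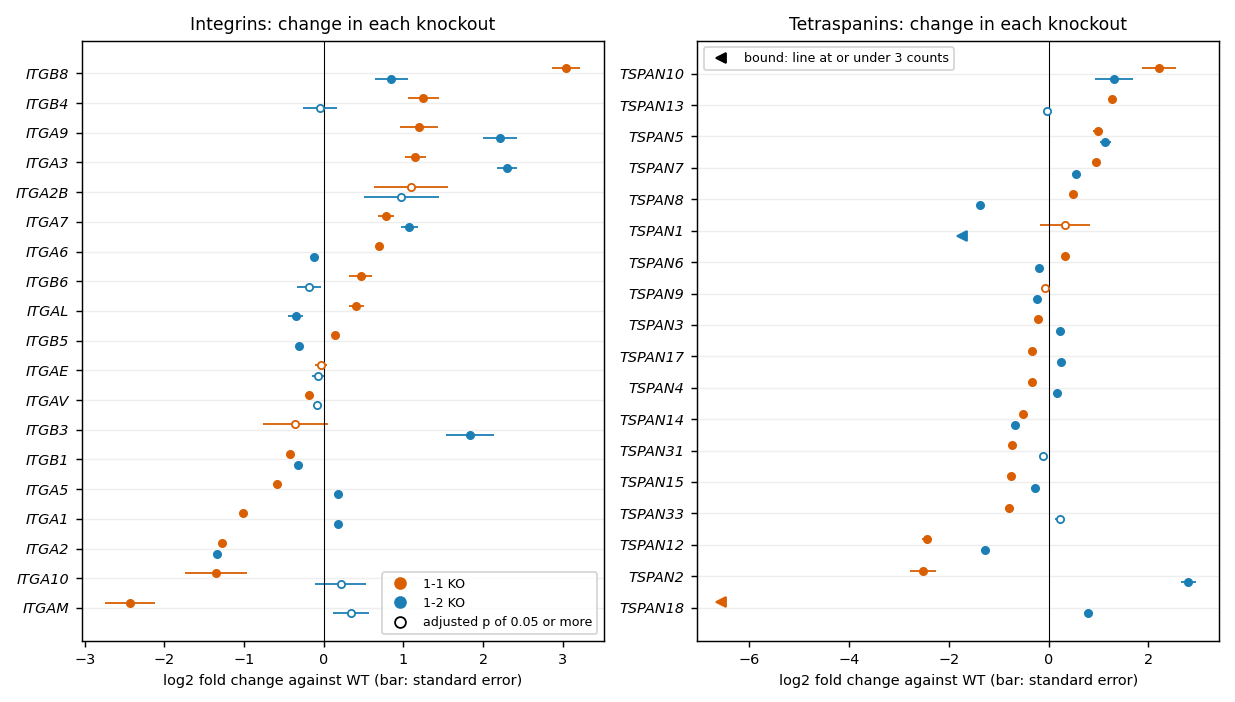
Log2 fold change against WT of the 37 tested members, with the standard error as a bar, in 1-1 KO (orange) and 1-2 KO (blue), where open points did not pass the threshold and triangles are bounds for lines at or under 3 counts in every library. ITGB8 stands highest in 1-1 KO at 3.04 and TSPAN2 highest in 1-2 KO at 2.80, while TSPAN2 and TSPAN18 lie on opposite sides of 0 in the 2 lines.

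To compare genes, CPM were divided by the length of the MANE Select transcript in kilobases (CPM per kb). On this scale ITGB1 and ITGAV stood above all other members in the mean of the 9 libraries. In 1-1 KO, however, TSPAN13 at 131 CPM per kb lay above ITGAV at 125. The ranking also depended on the length used. Per kb of all annotated exons, TSPAN13 was at 74.3, above ITGAV at 48.8 and ITGB1 at 48.4 (mean of 9 libraries). ITGB1 and ITGAV held 73.3 ± 0.518% of the integrin CPM per kb in WT, 70.1 ± 0.290% in 1-1 KO and 71.4 ± 0.363% in 1-2 KO (SD, n = 3 libraries). ITGB1, the common beta subunit of the collagen, laminin and fibronectin receptors (chr10:32887273-33005792, GRCh38), was at 832, 845 and 818 CPM in WT, 615, 619 and 621 CPM in 1-1 KO and 652, 685 and 653 CPM in 1-2 KO. The 3 groups of libraries did not overlap, with WT highest and 1-1 KO lowest. The fall was 1.35-fold in 1-1 KO (edgeR, log2 fold change -0.43 ± 0.033 (SE), adjusted p = 5.95e-08) and 1.25-fold in 1-2 KO (edgeR, log2 fold change -0.33 ± 0.033 (SE), adjusted p = 1.33e-06). Its 50 neighbouring tested genes on chromosome 10 had a median log2 fold change of -0.27 in 1-2 KO, and relative to them ITGB1 did not pass the threshold there (log2 fold change -0.056, edgeR adjusted p = 0.177). The direct difference between the knockouts, 0.10 on the log2 scale, was lost without 1-1 KO replicate 1 (0.10, edgeR adjusted p = 0.0604) and without 1-2 KO replicate 2 (0.079, adjusted p = 0.0683).

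ITGAV, the alpha subunit of the vitronectin receptors, was at 1024, 1018 and 958 CPM in WT, 888, 864 and 898 CPM in 1-1 KO and 912, 967 and 956 CPM in 1-2 KO. WT and 1-1 KO did not overlap, whereas WT and 1-2 KO did. The level was 1.13-fold lower in 1-1 KO (edgeR, log2 fold change -0.18 ± 0.038 (SE), adjusted p = 8.85e-04) and did not pass the threshold in 1-2 KO (edgeR, log2 fold change -0.082 ± 0.038 (SE), adjusted p = 0.0833), but it did so without WT replicate 3 (-0.13, edgeR adjusted p = 0.00585). DESeq2's Wald test also called it lower in 1-2 KO (log2 fold change -0.094, adjusted p = 0.0395). The direct difference of 0.097 (edgeR adjusted p = 0.0368) was lost when any of 6 of the 9 libraries was left out, with log2 fold changes between 0.074 and 0.12 over the 9 fits. The libraries whose loss ended it were WT replicate 3, each 1-1 KO replicate, and 1-2 KO replicates 2 and 3.

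The collagen-binding alpha subunits were lower in 1-1 KO. Their summed level was 34.5 ± 0.829 CPM per kb in WT, 16.0 ± 0.140 in 1-1 KO and 29.6 ± 1.36 in 1-2 KO (SD, n = 3). All 3 tested genes of this group, ITGA1, ITGA2 and ITGA10, fell in 1-1 KO (30.9% of all tested genes), and ITGA11 was near the floor. ITGA1 and ITGA2 are neighbours on the plus strand of chromosome 5, with starts 201.4 kb apart. The RefSeq promoters (GRCh38.p14, 250 bases before to 50 after the start, 5′ to 3′) of the neighbours ITGA1 and ITGA2 are shown because the genes moved together in 1 knockout and apart in the other. Capitals mark the GC box GGGCGG on either strand.
ITGA1, chr5:52787666-52787965, plus strand: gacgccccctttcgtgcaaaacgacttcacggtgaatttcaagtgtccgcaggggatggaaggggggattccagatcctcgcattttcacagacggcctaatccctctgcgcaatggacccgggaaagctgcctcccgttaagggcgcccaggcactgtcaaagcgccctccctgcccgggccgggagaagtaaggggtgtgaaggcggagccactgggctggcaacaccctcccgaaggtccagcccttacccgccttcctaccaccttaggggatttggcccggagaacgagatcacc
ITGA2, chr5:52989102-52989401, plus strand: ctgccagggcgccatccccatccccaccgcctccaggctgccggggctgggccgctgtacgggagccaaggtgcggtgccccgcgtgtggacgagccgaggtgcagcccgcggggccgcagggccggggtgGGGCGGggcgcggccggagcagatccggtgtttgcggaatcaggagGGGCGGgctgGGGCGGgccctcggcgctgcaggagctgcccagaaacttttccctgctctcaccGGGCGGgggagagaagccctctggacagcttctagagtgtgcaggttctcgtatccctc
The ITGA1 promoter held 19 CpG dinucleotides and none of the 4 motifs searched, and the ITGA2 promoter held 27 CpG and 4 GC boxes. A match is a description of the letters, not of a bound site.

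ITGA1, the alpha subunit of the collagen receptor alpha-1 beta-1 (chr5:52787916-52959209), was at 231, 237 and 232 CPM in WT, 115, 116 and 114 CPM in 1-1 KO and 249.4, 273 and 267 CPM in 1-2 KO. Each 1-1 KO library was lower than every WT library, and each 1-2 KO library was higher. ITGA1 was 2.02-fold lower in 1-1 KO (edgeR, log2 fold change -1.02 ± 0.038 (SE), adjusted p = 3.27e-11) and 1.13-fold higher in 1-2 KO (edgeR, log2 fold change 0.17 ± 0.037 (SE), adjusted p = 0.00114), and the knockouts differed by 2.28-fold (edgeR, log2 fold change 1.19 ± 0.038 (SE), adjusted p = 4.36e-12). ITGA1 starts at the same position as PELO, which lies within it on the same strand, and 499 nt of its exons are shared with PELO, so that reads in these exons cannot be told apart. PELO itself had a log2 fold change of 0.12 in 1-1 KO and -0.75 in 1-2 KO, opposite in sign to those of ITGA1.

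ITGA2, the alpha subunit of the collagen receptor of platelets and epithelia (chr5:52989340-53094779), was at 96.7, 104.2 and 97.3 CPM in WT, 42.02, 40.8 and 40.6 CPM in 1-1 KO and 37.8, 41.7 and 38.1 CPM in 1-2 KO. The libraries of both knockouts lay below those of WT and overlapped each other. It was 2.42-fold lower in 1-1 KO (edgeR, log2 fold change -1.27 ± 0.046 (SE), adjusted p = 2.65e-11) and 2.54-fold lower in 1-2 KO (edgeR, log2 fold change -1.34 ± 0.047 (SE), adjusted p = 1.86e-11). The direct difference did not pass the threshold (edgeR, log2 fold change -0.071 ± 0.048 (SE), adjusted p = 0.207), except without 1-2 KO replicate 2 (-0.12, edgeR adjusted p = 0.0455). The level of ITGA1 per kb was 1.71 ± 0.0471 times that of ITGA2 in WT, 2.05 ± 0.0418 times in 1-1 KO and 4.91 ± 0.188 times in 1-2 KO (SD, n = 3).

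The genes around this pair also differed. In 1-2 KO, the 7 other tested genes that start within 1000000 nt of ITGA1 had a median log2 fold change of -0.95. Of these, 0 were upregulated (28.2% of all tested genes) and 6 were downregulated (26.2%). The 6 were PELO (-0.75), MOCS2-DT (-0.75), MOCS2 (-0.95), FST (-1.16), NDUFS4 (-1.27) and ITGA2 (-1.34). Over the 50 nearest tested genes the median was -0.77 in 1-2 KO and 0.092 in 1-1 KO. Relative to these neighbours, ITGA1 was higher in 1-2 KO by 0.95 on the log2 scale (edgeR adjusted p = 7.64e-11), and ITGA2 differed between the knockouts by 0.64, in place of -0.071. In 1-1 KO, 4 of the 7 other genes fell (30.9% of all tested genes) and 2 rose (32.5%), and ITGA2 showed the largest fall of the 7.

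ITGA10 was at 0.528, 0.293 and 0.285 CPM in WT, 0.213, 0.122 and 0.0981 CPM in 1-1 KO and 0.427, 0.427 and 0.449 CPM in 1-2 KO, and its fall in 1-1 KO (edgeR, log2 fold change -1.35 ± 0.39 (SE), adjusted p = 0.00771) was lost without WT replicate 1 (-0.99, edgeR adjusted p = 0.0619). The libraries of 1-1 KO lay below the rest, and those of WT and 1-2 KO overlapped.

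The laminin-binding alpha subunits ITGA3, ITGA6 and ITGA7 were all upregulated in 1-1 KO (32.5% of all tested genes). ITGA3 and ITGA7 were also upregulated in 1-2 KO (28.2%). Their summed level was 22.5 ± 0.107 CPM per kb in WT, 36.8 ± 0.896 in 1-1 KO and 22.9 ± 0.935 in 1-2 KO. The ratio of collagen-binding to laminin-binding alpha subunits was therefore 1.53 ± 0.0308 in WT, 0.436 ± 0.0142 in 1-1 KO and 1.29 ± 0.0518 in 1-2 KO (SD, n = 3). The ranges of the 3 lines did not overlap, and 1-1 KO lay farthest from the others. Hepatocyte and fibroblast marker sums were also highest in 1-1 KO, as given above, and their part in the ratio was not tested.

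ITGA6, the alpha subunit that joins ITGB1 or ITGB4 in laminin receptors, made up most of this sum, with 124, 126 and 124 CPM in WT, 199.5, 199.6 and 209 CPM in 1-1 KO and 112, 121 and 111 CPM in 1-2 KO. The 1-1 KO libraries stood clear above all others, and each 1-2 KO library lay below each WT library. ITGA6 rose 1.62-fold in 1-1 KO (edgeR, log2 fold change 0.70 ± 0.038 (SE), adjusted p = 1.69e-09). The difference in 1-2 KO was small (edgeR, log2 fold change -0.12 ± 0.039 (SE), adjusted p = 0.0182) and was lost without WT replicate 2 (-0.11, edgeR adjusted p = 0.0536), without 1-2 KO replicate 3 (-0.10, adjusted p = 0.0819) and with scaling by library size alone (-0.063, adjusted p = 0.162).

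ITGA3, whose product pairs with ITGB1 and binds the tetraspanin CD151, was at 1.73, 1.52 and 2.12 CPM in WT, 4.04, 4.23 and 3.58 CPM in 1-1 KO and 9.35, 8.46 and 8.46 CPM in 1-2 KO. The 3 lines formed separate steps, with 1-2 KO highest. It was upregulated 2.22-fold in 1-1 KO (edgeR, log2 fold change 1.15 ± 0.13 (SE), adjusted p = 2.57e-06) and 4.92-fold in 1-2 KO (edgeR, log2 fold change 2.30 ± 0.12 (SE), adjusted p = 1.33e-09), and the knockouts differed by 2.22-fold (edgeR, log2 fold change 1.15 ± 0.11 (SE), adjusted p = 3.08e-07). Per kb, ITGA3 lay far below ITGA6, at 0.367 ± 0.0626 against 21.5 ± 0.194 CPM per kb in WT.

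ITGA7, the laminin receptor subunit of muscle, was at 2.91, 2.40 and 2.54 CPM in WT, 4.47, 4.47 and 4.58 CPM in 1-1 KO and 5.70, 5.70 and 5.17 CPM in 1-2 KO. Both knockouts lay above WT without overlap. The rise was 1.72-fold in 1-1 KO (edgeR, log2 fold change 0.78 ± 0.10 (SE), adjusted p = 1.55e-05) and 2.10-fold in 1-2 KO (edgeR, log2 fold change 1.07 ± 0.10 (SE), adjusted p = 7.53e-07), and the direct difference of 0.29 passed edgeR's threshold (adjusted p = 0.0150) but not that of DESeq2's Wald test (adjusted p = 0.0739).

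ITGB4, the beta subunit that joins ITGA6 in hemidesmosomes, was at 0.905, 1.36 and 1.30 CPM in WT, 2.36, 3.16 and 2.92 CPM in 1-1 KO and 1.16, 0.879 and 1.37 CPM in 1-2 KO. Only the 1-1 KO libraries stood apart, and those of WT and 1-2 KO overlapped. ITGB4 rose 2.38-fold in 1-1 KO (edgeR, log2 fold change 1.25 ± 0.19 (SE), adjusted p = 4.83e-05) and did not pass the threshold in 1-2 KO (edgeR, log2 fold change -0.051 ± 0.21 (SE), adjusted p = 0.860). At 0.477 ± 0.0693 CPM per kb in 1-1 KO it was far below ITGB1 at 166 ± 0.708. Of the 7 hemidesmosome partners listed, 3 were higher and 2 lower in 1-1 KO (32.5% and 30.9% of all tested genes). In 1-2 KO, 3 were higher and 4 lower (28.2% and 26.2%). DST, a plakin that anchors keratin, fell in 1-2 KO (edgeR, log2 fold change -0.39 ± 0.046 (SE), adjusted p = 5.66e-06), but not relative to its neighbours (-0.10, adjusted p = 0.0776). CD151 fell in both lines (log2 fold changes -0.34 and -0.31).

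Among the receptors of RGD proteins, ITGA5, the fibronectin receptor subunit, was at 128, 116 and 125 CPM in WT, 81.8, 84.9 and 77.9 CPM in 1-1 KO and 137, 135 and 146 CPM in 1-2 KO. The 1-1 KO libraries were the lowest and the 1-2 KO libraries the highest, with no overlap between lines. ITGA5 fell 1.51-fold in 1-1 KO (edgeR, log2 fold change -0.59 ± 0.047 (SE), adjusted p = 7.13e-08) and rose 1.13-fold in 1-2 KO (edgeR, log2 fold change 0.18 ± 0.046 (SE), adjusted p = 0.00419), and the knockouts differed by 1.71-fold (edgeR, log2 fold change 0.77 ± 0.047 (SE), adjusted p = 3.31e-09). ITGA2B, the platelet fibrinogen receptor subunit, stayed between 0.0951 and 0.343 CPM and did not pass the threshold in 1-1 KO (edgeR, log2 fold change 1.09 ± 0.46 (SE), adjusted p = 0.0532) or 1-2 KO (edgeR, log2 fold change 0.97 ± 0.47 (SE), adjusted p = 0.0968). In 1-1 KO it did so without 1-1 KO replicate 1 (1.33, edgeR adjusted p = 0.0282), without 1-2 KO replicate 2 (1.09, adjusted p = 0.0490) and with scaling by library size alone. ITGA8 was near the floor.

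Besides ITGB1, which was lower in both knockouts, ITGAV has 4 beta partners. Of these, 3 were higher in 1-1 KO (32.5% of all tested genes), against 2 higher (28.2%) and 1 lower (26.2%) in 1-2 KO. ITGB5, which forms a vitronectin receptor, was at 162, 158 and 162 CPM in WT, 173, 183 and 177 CPM in 1-1 KO and 126, 128 and 133 CPM in 1-2 KO. The 3 lines did not overlap, and 1-2 KO was the lowest. ITGB5 rose 1.11-fold in 1-1 KO (edgeR, log2 fold change 0.15 ± 0.035 (SE), adjusted p = 0.00225) and fell 1.24-fold in 1-2 KO (edgeR, log2 fold change -0.32 ± 0.035 (SE), adjusted p = 3.30e-06). Its 50 neighbours on chromosome 3 had a median of 0.37 in 1-1 KO, and relative to them ITGB5 was lower there, at -0.22 on the log2 scale (edgeR adjusted p = 8.40e-05).

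ITGB8, whose product pairs with ITGAV and activates latent TGF-beta, showed the largest rise of a tested integrin in 1-1 KO, with 0.427, 0.880 and 0.666 CPM in WT, 5.15, 5.32 and 5.74 CPM in 1-1 KO and 1.21, 1.21 and 1.12 CPM in 1-2 KO. All 1-1 KO libraries were well above the rest, and the 1-2 KO libraries were above WT by a smaller step. The change was 8.23-fold in 1-1 KO (edgeR, log2 fold change 3.04 ± 0.17 (SE), adjusted p = 2.42e-09) and 1.80-fold in 1-2 KO (edgeR, log2 fold change 0.85 ± 0.21 (SE), adjusted p = 0.00346). The 50 neighbours on chromosome 7 had a median of 0.65 in 1-1 KO, below the value of ITGB8. Its log2 fold change in 1-1 KO stayed, whichever of the 9 libraries was left out, between 2.78 and 3.33. Per length, ITGB8 was at 0.602 ± 0.0334 CPM per kb in 1-1 KO, against 40.0 ± 1.17 for ITGB5.

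ITGB3, the platelet and osteoclast partner of ITGAV, was low, with 0.251, 0.267 and 0.190 CPM in WT, 0.118, 0.267 and 0.172 CPM in 1-1 KO and 1.09, 0.778 and 0.699 CPM in 1-2 KO. The 1-2 KO libraries lay above all others. With at most 11 counts in a library of WT or 1-1 KO, ITGB3 passed the filter only through the 1-2 KO libraries, where it was high. ITGB3, which shares 33.2% of its exon length with another gene on the same strand (ENSG00000259753, at 0 counts), rose in 1-2 KO (edgeR, log2 fold change 1.83 ± 0.31 (SE), adjusted p = 1.57e-04) and did not pass the threshold in 1-1 KO (edgeR, log2 fold change -0.36 ± 0.41 (SE), adjusted p = 0.461). ITGB6, an epithelial partner of ITGAV, rose in 1-1 KO (edgeR, log2 fold change 0.46 ± 0.14 (SE), adjusted p = 0.00992). This call was lost without WT replicate 1 (0.37, edgeR adjusted p = 0.0504), without 1-1 KO replicate 3 (0.36, edgeR adjusted p = 0.0540) and in DESeq2's Wald test. It was also lost relative to its neighbours, whose median in 1-1 KO was 0.64. Summed over ITGB3, ITGB5, ITGB6 and ITGB8, and thus without ITGB1, the beta partners of ITGAV were at 36.7 ± 0.424 CPM per kb in WT, 41.3 ± 1.21 in 1-1 KO and 29.7 ± 0.764 in 1-2 KO, and ITGAV alone at 142 ± 5.21, 125 ± 2.50 and 134 ± 4.16.

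ITGA9, the alpha subunit that pairs with ITGB1 and binds tenascin, was at 0.402, 0.400 and 0.571 CPM in WT, 1.13, 1.12 and 0.858 CPM in 1-1 KO and 1.83, 1.91 and 2.57 CPM in 1-2 KO. The lines rose in steps from WT through 1-1 KO to 1-2 KO, without overlap. The change was 2.29-fold in 1-1 KO (edgeR, log2 fold change 1.20 ± 0.24 (SE), adjusted p = 6.07e-04) and 4.63-fold in 1-2 KO (edgeR, log2 fold change 2.21 ± 0.22 (SE), adjusted p = 9.39e-07). An antisense gene, ITGA9-AS1, covers 9.2% of its exons, and whether the counts used strand is not stated in the sources used here.

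ITGAM, ITGAL and ITGAE, which encode alpha subunits of leukocytes, also passed the filter. ITGAM, a subunit of complement receptor 3, was at 0.879, 1.65 and 1.59 CPM in WT, 0.236, 0.195 and 0.319 CPM in 1-1 KO and 1.71, 1.41 and 2.05 CPM in 1-2 KO. The 1-1 KO libraries lay below all others, and WT and 1-2 KO overlapped. It fell 5.39-fold in 1-1 KO (edgeR, log2 fold change -2.43 ± 0.31 (SE), adjusted p = 9.79e-06) and did not pass the threshold in 1-2 KO (edgeR, log2 fold change 0.34 ± 0.22 (SE), adjusted p = 0.215). ITGAL, the alpha subunit of LFA-1, rose in 1-1 KO (edgeR, log2 fold change 0.41 ± 0.091 (SE), adjusted p = 0.00130) and fell in 1-2 KO (edgeR, log2 fold change -0.35 ± 0.095 (SE), adjusted p = 0.00645). ITGAE, the E-cadherin receptor subunit of intraepithelial T cells, was at 26.5 to 32.4 CPM in the 9 libraries and did not pass the threshold in either knockout. The leukocyte alpha subunits summed to 9.96 ± 0.434 CPM per kb in WT, 10.1 ± 0.730 in 1-1 KO and 9.26 ± 0.270 in 1-2 KO, and their beta subunits ITGB2 and ITGB7 to 0.0129, 0.0513 and 0.0548. Of 24 known integrin pairs, 15 had both subunits tested.

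Of 39 tested genes that switch integrins on and link them to actin, 9 were higher and 22 lower in 1-1 KO (median log2 fold change -0.22, against 0.011 for all tested genes), against 17 higher and 9 lower in 1-2 KO (median 0.13, against 0.019). FLNA, filamin A, fell from 2551 ± 150.3 CPM in WT to 995 ± 21.7 in 1-1 KO (edgeR, log2 fold change -1.36 ± 0.043 (SE), adjusted p = 6.57e-12) and did not pass the threshold in 1-2 KO. RSU1, a protein bound to the PINCH adaptor, fell in both lines (log2 fold changes -1.33 and -0.38), but in 1-2 KO not relative to its neighbours (-0.093, edgeR adjusted p = 0.0508). LIMS2, which encodes a PINCH adaptor, fell by 0.32 on the log2 scale in 1-1 KO and rose by 1.52 in 1-2 KO. PARVB, beta-parvin, likewise fell by 0.51 and rose by 1.40.

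Of 36 tested integrin ligands, 18 were higher and 10 lower in 1-1 KO, against 19 higher and 12 lower in 1-2 KO. Of all tested genes, 32.5% were higher and 30.9% lower in 1-1 KO, and 28.2% were higher and 26.2% lower in 1-2 KO, which is also the background of the other lists. COL6A1, a collagen VI chain, rose from 2.73 ± 0.431 CPM in WT to 33.0 ± 1.48 in 1-1 KO and 28.9 ± 2.72 in 1-2 KO (log2 fold changes 3.61 and 3.41). ICAM1, the ligand of ITGAL and ITGAM, fell in both (log2 fold changes -1.33 and -1.15), from 234 ± 3.39 CPM in WT. SPP1, osteopontin, rose by 0.24 in 1-1 KO and 1.75 in 1-2 KO, the former not relative to its neighbours (0.0054, edgeR adjusted p = 0.929). CDH1, the ligand of ITGAE, rose by 0.48 in 1-1 KO and changed by -1.48 in 1-2 KO.

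Among the tetraspanins, TSPAN13 had the highest level per kb, at 54.1 ± 0.966 CPM per kb in WT, 131 ± 1.18 in 1-1 KO and 53.1 ± 2.14 in 1-2 KO. The libraries were at 99.8, 103 and 101 CPM in WT, 248, 246 and 244 CPM in 1-1 KO and 103, 95.2 and 100.04 CPM in 1-2 KO. The 1-1 KO libraries stood far above the rest, and WT and 1-2 KO overlapped. The rise was 2.42-fold in 1-1 KO (edgeR, log2 fold change 1.28 ± 0.036 (SE), adjusted p = 2.13e-12), and 1-2 KO did not pass the threshold (edgeR, log2 fold change -0.028 ± 0.036 (SE), adjusted p = 0.545). Of the 10 other tested genes within 1000000 nt of its start on chromosome 7, 6 rose in 1-1 KO (32.5% of all tested genes) and 0 fell (30.9%). Among the 6 were SOSTDC1 (1.83) and AHR (0.60), and the median over the 50 nearest genes was 0.61.

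TSPAN18, a tetraspanin known to act on the calcium channel ORAI1 (chr11:44726465-44932423), was nearly lost in 1-1 KO. It had 259, 245 and 237 counts in WT, 0, 1 and 0 in 1-1 KO and 499, 468 and 483 in 1-2 KO. The level in 1-1 KO was at the floor, at least 94.6-fold lower than in WT against 3 counts per library (edgeR adjusted p = 2.80e-12), and in 1-2 KO it was 1.74-fold higher (edgeR, log2 fold change 0.80 ± 0.092 (SE), adjusted p = 4.66e-06). The libraries of the 3 lines did not overlap. CD82, a tetraspanin under another symbol whose start lies at -162.0 kb from that of TSPAN18, was at 4.22, 4.69 and 3.46 CPM in WT, 0.449, 0.340 and 0.564 CPM in 1-1 KO and 2.59, 1.91 and 2.42 CPM in 1-2 KO. It fell in both knockouts (edgeR, log2 fold change -3.19 ± 0.20 (SE), adjusted p = 6.48e-09 in 1-1 KO, and log2 fold change -0.84 in 1-2 KO). Of the 9 other tested genes within 1000000 nt, 5 fell in 1-1 KO (30.9% of all tested genes) and 2 rose (32.5%), the latter TP53I11 (0.61) and PRDM11 (0.84). In 1-2 KO, 6 rose (28.2% of all tested genes) and 1 fell (26.2%). TP53I11 overlaps 1.3% of the TSPAN18 exons on the opposite strand. SYT13, 559.9 kb beyond the start of TSPAN18, was at or under the floor in 1-1 KO and rose by 2.75 in 1-2 KO.

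TSPAN2 and TSPAN12 both changed by more than 1 on the log2 scale in each knockout compared to WT. Their RefSeq promoters (GRCh38.p14, both on the minus strand, printed 5′ to 3′) are shown because the genes moved together in 1-1 KO and apart in 1-2 KO, with capitals as above, where CCGCCC is the GC box read on the other strand.
TSPAN2, chr1:115089454-115089753, minus strand: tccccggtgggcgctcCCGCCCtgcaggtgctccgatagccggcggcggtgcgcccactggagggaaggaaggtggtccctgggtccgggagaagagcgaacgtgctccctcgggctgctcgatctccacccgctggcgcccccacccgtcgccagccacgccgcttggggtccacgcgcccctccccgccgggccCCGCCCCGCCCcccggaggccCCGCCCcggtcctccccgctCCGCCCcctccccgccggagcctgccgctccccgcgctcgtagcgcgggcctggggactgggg
TSPAN12, chr7:120858095-120858394, minus strand: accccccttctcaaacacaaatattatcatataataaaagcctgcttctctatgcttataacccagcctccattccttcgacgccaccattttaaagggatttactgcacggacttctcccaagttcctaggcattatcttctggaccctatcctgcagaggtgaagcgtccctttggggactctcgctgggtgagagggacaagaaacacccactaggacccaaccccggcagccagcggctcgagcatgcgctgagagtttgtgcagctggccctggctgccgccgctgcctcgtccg
The TSPAN2 promoter held 38 CpG dinucleotides and 5 GC boxes, 2 of which overlap by 1 base, and the TSPAN12 promoter held 13 CpG and none of the motifs. A promoter was found in the RefSeq table for 34 of the 48 members, and TSPAN18 was not among them. Searched on both strands, GGGCGG was found in 18 of the 34 (52.9%), against 45.0% of 35116 promoters of the same length and 63.3% of those of tested genes. In the same order, CCAAT was found in 10 (29.4%, against 34.6% and 34.7%), TATAAA in 1 (2.9%, against 11.5% and 7.0%) and TGANTCA in 2 (5.9%, against 7.7% and 5.4%). The median number of CpG was 17 for the members, 14 for all promoters and 24 for those of tested genes. Among the members it was 16 for the 27 that were tested and 27 for the 7 that were not. The motif shares of the tested members alone were not computed.

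TSPAN2, known from oligodendrocytes, was at 1.28, 1.71 and 1.05 CPM in WT, 0.236, 0.219 and 0.245 CPM in 1-1 KO and 8.19, 10.7 and 9.46 CPM in 1-2 KO. The 3 lines were far apart, with 1-1 KO lowest and 1-2 KO highest. It fell 5.74-fold in 1-1 KO (edgeR, log2 fold change -2.52 ± 0.26 (SE), adjusted p = 1.15e-06) and rose 6.95-fold in 1-2 KO (edgeR, log2 fold change 2.80 ± 0.15 (SE), adjusted p = 1.80e-09), a difference of 39.9-fold between the knockouts (edgeR, log2 fold change 5.32 ± 0.20 (SE), adjusted p = 2.28e-11). TSPAN12, a co-receptor of FZD4 in Norrin signalling, was at 24.7, 30.6 and 27.3 CPM in WT, 5.08, 4.86 and 5.25 CPM in 1-1 KO and 12.4, 10.9 and 11.1 CPM in 1-2 KO. Both knockouts lay below WT without overlap, and 1-1 KO was the lower of the 2. It fell 5.43-fold in 1-1 KO (edgeR, log2 fold change -2.44 ± 0.089 (SE), adjusted p = 2.55e-11) and 2.40-fold in 1-2 KO (edgeR, log2 fold change -1.26 ± 0.081 (SE), adjusted p = 1.12e-08).

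TSPAN8, a tetraspanin of epithelial tumours, was at 21.8, 23.3 and 22.2 CPM in WT, 31.5, 32.5 and 29.98 CPM in 1-1 KO and 8.52, 9.22 and 8.31 CPM in 1-2 KO. The 1-1 KO libraries were above WT and the 1-2 KO libraries below it, without overlap. It rose 1.40-fold in 1-1 KO (edgeR, log2 fold change 0.48 ± 0.056 (SE), adjusted p = 3.94e-06) and fell 2.58-fold in 1-2 KO (edgeR, log2 fold change -1.37 ± 0.062 (SE), adjusted p = 2.82e-10). TSPAN6 was at 125, 133 and 131 CPM in WT, 159, 166 and 163 CPM in 1-1 KO and 108, 115 and 117 CPM in 1-2 KO. Its rise in 1-1 KO (edgeR, log2 fold change 0.33 ± 0.039 (SE), adjusted p = 4.28e-06) and its fall in 1-2 KO (edgeR, log2 fold change -0.20 ± 0.039 (SE), adjusted p = 6.67e-04) followed the same order of lines with smaller steps.

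TSPAN3 was at 154, 151 and 162 CPM in WT, 132, 138 and 131 CPM in 1-1 KO and 186, 181 and 181 CPM in 1-2 KO. The lines did not overlap, and 1-1 KO was lowest. It fell in 1-1 KO (edgeR, log2 fold change -0.22 ± 0.037 (SE), adjusted p = 1.30e-04) and rose in 1-2 KO (edgeR, log2 fold change 0.23 ± 0.037 (SE), adjusted p = 9.67e-05), whereas relative to its 50 neighbours on chromosome 15, whose median in 1-1 KO was -0.35, it was higher in 1-1 KO by 0.13 (edgeR adjusted p = 0.00812). TSPAN4, a marker of migrasomes, was at 41.6, 42.8 and 49.5 CPM in WT, 34.6, 35.6 and 35.4 CPM in 1-1 KO and 53.8, 47.9 and 48.8 CPM in 1-2 KO. It fell in 1-1 KO (edgeR, log2 fold change -0.34 ± 0.064 (SE), adjusted p = 3.32e-04). Its rise in 1-2 KO (edgeR, log2 fold change 0.17 ± 0.063 (SE), adjusted p = 0.0320), where the libraries overlapped those of WT, was lost without WT replicate 1 (0.12, adjusted p = 0.149), WT replicate 2 (0.14, adjusted p = 0.124) or 1-2 KO replicate 1 (0.12, adjusted p = 0.118), and also relative to its neighbours. The call was also lost in DESeq2's Wald test (0.16, adjusted p = 0.0504) and in a fit of just the 2 groups (0.16, edgeR adjusted p = 0.0850).

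The 6 TspanC8 tetraspanins, which guide ADAM10, summed to 52.9 ± 1.78 CPM per kb in WT, 38.2 ± 0.635 in 1-1 KO and 47.2 ± 1.15 in 1-2 KO. In 1-1 KO, 2 of them rose (32.5% of all tested genes) and 4 fell (30.9%). In 1-2 KO, 3 rose (28.2%) and 2 fell (26.2%). TSPAN5 was at 3.77, 2.93 and 3.04 CPM in WT, 6.50, 6.25 and 6.67 CPM in 1-1 KO and 6.74, 7.11 and 7.74 CPM in 1-2 KO. Both knockouts lay above WT, by 1.98-fold in 1-1 KO (edgeR, log2 fold change 0.99 ± 0.11 (SE), adjusted p = 1.70e-06) and 2.20-fold in 1-2 KO (edgeR, log2 fold change 1.14 ± 0.11 (SE), adjusted p = 5.07e-07), and the direct difference did not pass the threshold (edgeR, log2 fold change 0.15 ± 0.097 (SE), adjusted p = 0.182), except relative to its neighbours (0.48, adjusted p = 6.12e-04). TSPAN33 was at 9.72, 8.93 and 8.84 CPM in WT, 5.44, 5.32 and 5.25 CPM in 1-1 KO and 9.19, 10.9 and 12.0 CPM in 1-2 KO. It fell in 1-1 KO (edgeR, log2 fold change -0.78 ± 0.099 (SE), adjusted p = 8.15e-06) and did not pass the threshold in 1-2 KO (edgeR, log2 fold change 0.22 ± 0.093 (SE), adjusted p = 0.0574), but did so without 1-2 KO replicate 1 (0.32, adjusted p = 0.00307). TSPAN33 was also called in 1-2 KO with library size alone (0.28, edgeR adjusted p = 0.0185) and with at least 10 counts in every library (0.22, edgeR adjusted p = 0.0493).

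Of the other TspanC8 genes, TSPAN14 was at 116 ± 4.48 CPM in WT, 81.7 ± 2.89 in 1-1 KO and 73.3 ± 2.30 in 1-2 KO, and it fell in both lines (log2 fold changes -0.51 and -0.67). TSPAN15 fell in both (log2 fold changes -0.76 and -0.27), but in 1-2 KO not relative to its neighbours (-0.11, edgeR adjusted p = 0.172). TSPAN17 fell by 0.32 on the log2 scale in 1-1 KO and rose by 0.25 in 1-2 KO, but relative to its neighbours neither passed the threshold. TSPAN10, which was low, rose in both (log2 fold changes 2.21 and 1.31), a call that was lost in 1-2 KO without WT replicate 1 (1.03, edgeR adjusted p = 0.0550) and without 1-2 KO replicate 1 (0.96, adjusted p = 0.0673).

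TSPAN7, which shares 23.0% of its exon length with ENSG00000250349 on the same strand (0 counts), rose in both knockouts (log2 fold changes 0.94 and 0.55). TSPAN31, which shares 26.1% of its exon length with CDK4 on the opposite strand, fell in 1-1 KO (edgeR, log2 fold change -0.73 ± 0.058 (SE), adjusted p = 7.69e-08), and did not pass the threshold in 1-2 KO (edgeR, log2 fold change -0.12 ± 0.057 (SE), adjusted p = 0.101), but did so without 1-2 KO replicate 2 (-0.16, adjusted p = 0.0355) and relative to its neighbours (-0.22, adjusted p = 0.00469). TSPAN9 fell in 1-2 KO (edgeR, log2 fold change -0.23 ± 0.040 (SE), adjusted p = 2.60e-04) and did not pass the threshold in 1-1 KO (edgeR, log2 fold change -0.070 ± 0.040 (SE), adjusted p = 0.143). Relative to its neighbours, the reverse held, with -0.060 in 1-2 KO (edgeR adjusted p = 0.232) and -0.16 in 1-1 KO (adjusted p = 0.00328). TSPAN1 was at or under the floor in 1-2 KO, at least 3.32-fold lower than in WT (0.245 ± 0.158 CPM) against 3 counts per library. Its WT and 1-2 KO libraries overlapped, and this call was lost without WT replicate 1 (-2.21, adjusted p = 0.0531).

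**Figure D3:**
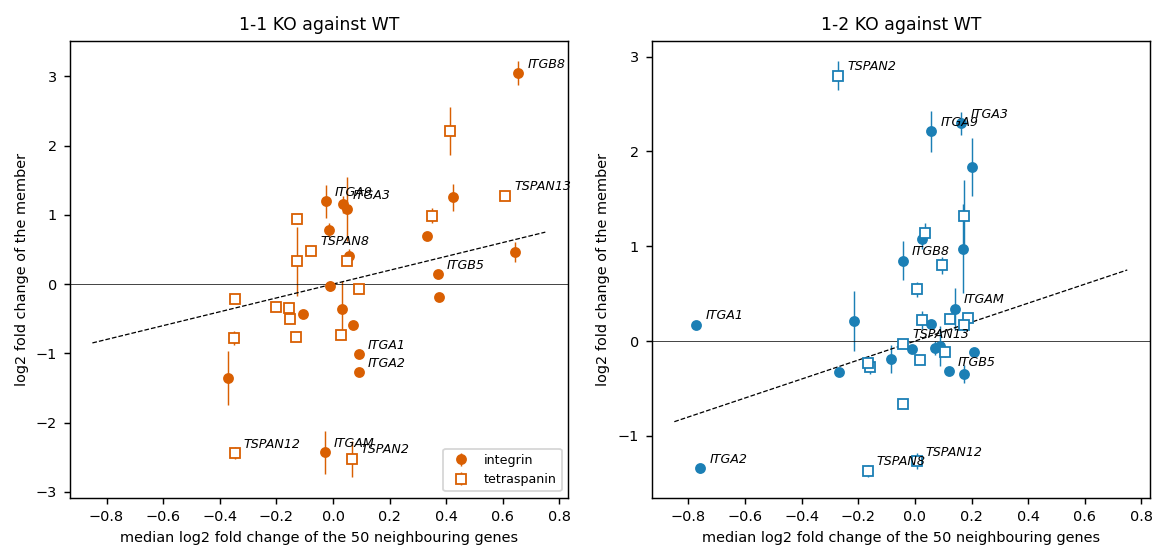
Log2 fold change of each tested member against that of its surroundings, given as the median over 50 neighbouring tested genes, in 1-1 KO (left) and 1-2 KO (right), with standard errors, filled circles for integrins, open squares for tetraspanins and a dashed line where both are equal (members at the floor are left out). In 1-2 KO, ITGA1 and ITGA2 lie at the left with neighbour medians of -0.77 and -0.76, ITGA1 above the line at 0.17 and ITGA2 below it at -1.34.

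Tetraspanins under other symbols and the partners of the family were counted beside the members. Of 9 tested tetraspanins with other symbols, 3 were higher and 3 lower in 1-1 KO (background 32.5% and 30.9%), against 1 higher and 7 lower in 1-2 KO (28.2% and 26.2%). CD9 fell in 1-2 KO (edgeR, log2 fold change -1.09 ± 0.060 (SE), adjusted p = 2.38e-09) and did not pass the threshold in 1-1 KO. CD81, an entry factor of hepatitis C virus, was the 1 that rose in 1-2 KO, from 57.6 ± 2.32 CPM in WT to 86.6 ± 4.06, and fell to 40.3 ± 1.61 in 1-1 KO. UPK1B, a uroplakin, rose by 1.06 in 1-1 KO and changed by -0.71 in 1-2 KO.

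Of 18 tested partners of tetraspanins, 10 were higher and 6 lower in 1-1 KO, against 6 higher and 5 lower in 1-2 KO, with the same backgrounds. NOTCH3, a receptor cleaved by ADAM10, rose in both (log2 fold changes 2.32 and 2.31). EPCAM rose in 1-1 KO from 35.5 ± 0.718 to 103.7 ± 0.869 CPM (edgeR, log2 fold change 1.55 ± 0.037 (SE), adjusted p = 5.07e-13) and did not pass the threshold in 1-2 KO. CD44, the hyaluronan receptor, fell in both (log2 fold changes -1.49 and -1.07). Of the 2 families, the summed level of the integrins was 2622 ± 49.2 CPM in WT, 2183 ± 18.1 in 1-1 KO and 2353 ± 61.8 in 1-2 KO, and that of the tetraspanins 760.1 ± 15.3, 829.9 ± 10.8 and 717 ± 4.90 CPM (SD, n = 3).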

How the data were processed

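According to the paper's methods and the submitters' processing notes, the authors made stranded mRNA libraries from the Huh-7 lines, aligned the reads to GRCh38 (STAR) and assigned them to genes (featureCounts). The authors deposited raw read counts per gene, with no normalization. The strand setting and the treatment of reads that match several places are not given in the sources used here.

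Groups came from the labels. Gene positions, symbols and lengths came from GENCODE 44, in which 60463 of the 60664 identifiers were found, and promoters from the RefSeq table. In R 4.3.3, edgeR 4.0.16 tested the counts after filterByExpr (minimum count 10, minimum total count 15) and TMM, with all 9 libraries in 1 fit and the quasi-likelihood test. Benjamini-Hochberg adjustment ran over the 17207 tested genes, with a threshold of 0.05. The step was tested on simulated data. Total counts per library of 32384469 to 41782387 set the precision. Values given for every library are those of members that averaged 1 CPM or more in a line and a called log2 fold change of at least 1 in 1 comparison, and of the 10 members with the highest CPM per kb. ITGA10 and ITGB3 were added after their values were seen. From each list, the 2 genes with the smallest adjusted p per knockout are named, except 1 that is not reported here. The members and lists were chosen with earlier results of these data known.

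The alternatives were DESeq2 1.42.0's Wald test, its size factors in edgeR, library size alone, no filter, a minimum of 10 counts per library, a fit of just the 2 groups, a replicate block, stricter thresholds, values relative to the 50 neighbouring genes, and leaving out each library. Replicates of a line were not duplicates, since the chi-square of their counts per degree of freedom ranged from 2.07 to 16.1. The highest values were those of 1-2 KO replicate 1, at 15.1 against replicate 2 and 16.1 against replicate 3. Replicates 2 and 3 of 1-2 KO were at 2.67, and WT replicates 1 and 3 at 10.4. Figures were drawn with Python 3.11.15 and matplotlib 3.10.9.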

Additional observations from a re-analysis of the deposited data

How the results depend on the processing

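The counts of differentially expressed integrins and tetraspanins stayed within 1.5 times the values given under all alternatives except 1. With an absolute log2 fold change of at least 1 required, 8 integrins and 5 tetraspanins were left in 1-1 KO compared to WT, 5 and 6 in 1-2 KO compared to WT, and 8 and 7 between the knockouts. Leaving out each library gave 14 to 17 integrins in 1-1 KO, 11 to 13 in 1-2 KO and 14 to 16 between the knockouts, and 16 to 16, 13 to 16 and 16 to 18 tetraspanins.

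With the replicate number as a replicate block, 16, 12 and 15 integrins and 16, 15 and 17 tetraspanins were differentially expressed in the 3 comparisons (1-1 KO, 1-2 KO, direct), where the direct comparison lost 1 integrin. Libraries with the same number did not deviate together, with correlations of deviations from -0.187 to 0.0474, against -0.142 to 0.237 for different numbers. These few values gave no sign of pairing by number. They cannot show whether the libraries were prepared in matched sets.

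Of 1164 recomputed log2 fold changes of the members described in every library, 1124 kept their direction and side of the threshold, 23 lost and 7 gained the call, and 10 changed sign. With library size alone, ITGB4 was at 0.0041 and TSPAN13 at 0.028 in 1-2 KO. Relative to the 50 neighbouring genes, ITGB5 was at -0.22 and TSPAN3 at 0.13 in 1-1 KO, TSPAN13 at 0.015 in 1-2 KO, and between the knockouts ITGA2 was at 0.64 and TSPAN3 at -0.15. When each library was left out, ITGB4 in 1-2 KO ranged from -0.23 to 0.10 (0.067 without WT replicate 2, 0.10 without 1-2 KO replicate 2) and TSPAN13 in 1-2 KO from -0.055 to 0.0035, the latter without 1-2 KO replicate 2. Neither had passed the threshold. The cause of these changes was not tested, apart from the neighbour medians subtracted by construction. Low counts limit ITGA2B, ITGA10, ITGB3, TSPAN1 and TSPAN10. Without the filter on low counts, 16 tetraspanins, 9 of them higher, were differentially expressed in 1-2 KO, against 15 and 8 with it.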

Other observations

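Noncoding genes and pseudogenes named for members were measured in the same table. ITGB1P1, a processed pseudogene of ITGB1 on chromosome 19, had up to 119 counts in a library, and is uncertain because it shares sequence with ITGB1. It was at 2.93 ± 0.241 CPM in WT, 2.10 ± 0.236 in 1-1 KO and 2.09 ± 0.0839 in 1-2 KO (SD, n = 3), with log2 fold changes of -0.48 and -0.49 (edgeR, adjusted p = 0.00395 and 0.00449). ITGA9-AS1 was at 1.69 ± 0.451, 1.19 ± 0.0551 and 1.67 ± 0.309 CPM, lower in 1-1 KO by -0.51 on the log2 scale (edgeR, adjusted p = 0.0390), while ITGA9 itself rose in that line. ITGB1-DT did not pass the threshold in either knockout (edgeR, log2 fold changes -0.15 and -0.62, adjusted p = 0.743 and 0.213). ITGB8-AS1 had at most 14 counts in a library and was not tested. ITGA6-AS1, TSPAN14-AS1, TSPAN18-AS1 and TSPAN9-IT1 had 0 counts in all 9 libraries.

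CDK4, on the strand opposite TSPAN31, was at 269 ± 5.76 CPM in WT, 257 ± 1.38 in 1-1 KO and 304 ± 7.56 in 1-2 KO.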
